A study of Parasteatoda tepidariorum with 75 samples.

Results

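Pt-gas1 (aug3.g9575) and the shifted-like gene models aug3.g27568 and aug3.g24611 were examined in RNA-seq libraries of embryos of the house spider Parasteatoda tepidariorum. They are 3 of the 27990 gene models counted, and were chosen by identifier. The deposited annotation describes aug3.g9575 as growth arrest-specific protein 1 and both other models as protein shifted-like. The study treated aug3.g27568 and aug3.g24611 as pieces of a single gene, so they are 1 gene measured in a pair of places and not independent of each other. On the assembly Ptep_1.0, Pt-gas1 lies on scaffold 1039 from 205556 to 260973 on the plus strand. The model aug3.g27568 lies on scaffold 223 from 86936 to 133880 on the plus strand, and aug3.g24611 on scaffold 27244 from 1 to 1558 on the minus strand. The end of aug3.g27568 overlaps the start of aug3.g27569, an uncharacterized model that begins at 133236 on the same strand. Reads where exons of both models overlap would be assigned to neither, and exon positions were not examined.

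Hedgehog (Hh) is a secreted signal. Its receptor Patched holds the membrane protein Smoothened inactive until Hh binds, after which Smoothened acts through transcription factors of the Ci/Gli family, and in flies and vertebrates patched is itself a target of the pathway. In vertebrates, Gas1 is a membrane-anchored protein that binds Hedgehog and acts as a co-receptor beside Patched. In Drosophila, Shifted is a secreted protein with a Wnt inhibitory factor domain that is needed for Hh to accumulate and spread in the wing disc. In the spider germ disc, Pt-hh is expressed at the rim, the future anterior side, and Hh signaling patterns the axis towards the center.

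Embryos came from egg sacs that a female laid after injection of dsRNA (parental RNA interference, pRNAi) or before it (untreated). A library holds the poly(A) RNA of pooled sibling embryos, so the female is the replicate. The tests of treatments entered each pRNAi egg sac as its own library, compared within females. Where a female gave several such sacs, the p-values treat these sacs as separate. Embryos with Pt-hh, Pt-ptc or gfp pRNAi, and untreated embryos of the same females, were sampled in early stage 3 and again in late stage 5. These were 2 Pt-hh females, 3 Pt-ptc females and gfp females 1 to 3, where gfp is a jellyfish gene used as the injection control. Embryos with Pt-msx1 pRNAi (3 females) or gfp pRNAi (gfp females 4 and 5), and untreated embryos of the same females, were sampled in late stage 5 and again in early stage 6; Pt-msx1 encodes a homeodomain transcription factor. The pRNAi egg sacs were laid 13 to 24 days after the first injection and the untreated ones 1 to 3 days before it, so treatment and age of the female cannot be told apart within a female, and the gfp females are the control for this. There were 42 pRNAi libraries and 26 untreated libraries of 13 females.

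Total counts ranged from 5961730 to 16400327 per library (median 9854679), and 10.9 to 24.0% of them fell on the 10 gene models with the most reads in libraries of the Pt-hh females, against 2.90 to 7.28% in the others. The transcript that each dsRNA targets was examined first. At late stage 5, Pt-hh was at 2.30 to 3.32 CPM in Pt-hh pRNAi libraries and at 33.6 and 70.8 CPM in untreated ones (CPM, counts scaled to the library total after TMM adjustment). Pt-ptc was not lower at late stage 5 in the libraries labelled Pt-ptc pRNAi, at 502 to 704 CPM against 409 to 554 CPM in untreated ones, and at early stage 3 it was at 41.7 to 75.4 CPM against 72.5 to 166 CPM (adjusted p = 0.0227). Pt-msx1 was not called lower at late stage 5 in the libraries labelled Pt-msx1 pRNAi, at 82.96, 117 and 96.8 CPM in females 1, 2 and 3, against 93.1, 133 and 78.7 CPM in untreated embryos, which is lower in 2 of 3 females. These transcript counts follow the label for Pt-hh, and by themselves they do not settle it for Pt-ptc at late stage 5 or for Pt-msx1. The study had other evidence for these knockdowns. It called Pt-ptc at early stage 3, though not at late stage 5, and described polarity defects of Pt-ptc pRNAi embryos. For Pt-msx1 it reported the same phenotypes with dsRNAs made from separate parts of the gene. In addition, the early stage 6 columns of Pt-msx1 pRNAi female 1 and of gfp pRNAi female 5 held identical counts for all 27990 models. Their deposited RPKM values for the 3 models differ by a common factor. Which of these embryo pools the counts came from was not tested. Deviations of a female's pRNAi and untreated libraries from their group means were correlated across models at early stage 6, with that column included. The values were 0.68 for the 2 gfp females and 0.29 to 0.59 for the 3 Pt-msx1 females. In that column Pt-gas1 was at 123.6 CPM, against 126 and 114 CPM in untreated embryos of gfp female 5 and Pt-msx1 female 1. Pt-msx1 was at 201 CPM in that column, against 146 CPM in untreated embryos of Pt-msx1 female 1. In Pt-msx1 pRNAi females 2 and 3 it was at 129 and 98.1 CPM at this stage, against 166 and 125 CPM in untreated embryos of these females, lower in 2 of 2. Results that use the column with identical counts are given with and without it where a fit allowed.

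In untreated embryos, Pt-gas1 transcripts were scarce at early stage 3 and abundant by late stage 5. They were at 1.29 to 14.7 CPM at early stage 3 (median 4.86, 8 females), at 29.2 to 178 CPM at late stage 5 (median 86.0, 13 females) and at 53.9 to 139 CPM at early stage 6 (median 114, 5 females). No early stage 3 library reached the level of any late stage 5 library, whereas the ranges of late stage 5 and of early stage 6 overlapped. Within females, the level was higher at late stage 5 than at early stage 3 in 8 of 8 females, by a log2 fold change of 4.15 ± 0.29 (SE, 17.8-fold, edgeR quasi-likelihood adjusted p = 1.13e-08). The same test called 65.8% of all models between these stages, so a call there is common. From late stage 5 to early stage 6, Pt-gas1 was higher in 5 of 5 females (0.65 ± 0.09, adjusted p = 0.00173), where 2.25% of models were called. That call was lost without gfp female 4, Pt-msx1 female 2 or Pt-msx1 female 3 (adjusted p = 0.0106 to 0.0170), while the value stayed between 0.59 and 0.71.

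The shifted-like models changed less across untreated stages. The model aug3.g27568 was at 4.07 to 14.04 CPM at early stage 3 (median 10.1), at 10.04 to 33.5 CPM at late stage 5 (median 19.1) and at 10.3 to 16.05 CPM at early stage 6 (median 12.2). It was higher at late stage 5 than at early stage 3 in 8 of 8 females (1.04 ± 0.19, adjusted p = 0.000234), and its early stage 6 level was not called different from late stage 5 (−0.57 ± 0.22, adjusted p = 0.182, lower in 3 of 5 females). The shorter model aug3.g24611 was at 0.643 to 1.99, 0.563 to 3.34 and 1.08 to 1.99 CPM at the 3 stages, and neither step passed the test (0.72 ± 0.31, adjusted p = 0.0506, and −0.19 ± 0.34, adjusted p = 0.808). Its 3 ranges overlapped. Per length, in the authors' RPKM values, the order of Pt-gas1 and aug3.g27568 changed with the stage. The ratio of Pt-gas1 to aug3.g27568 RPKM was 0.118 to 0.674 in untreated libraries at early stage 3, below 1 in 8 of 8. It was 0.603 to 3.75 at late stage 5, above 1 in 11 of 13, and 1.35 to 4.84 at early stage 6, above 1 in 5 of 5.

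In late stage 5 embryos labelled Pt-ptc pRNAi, all 3 models fell strongly. These models are among those that the study called on these same libraries, so their late stage 5 responses to Pt-hh and Pt-ptc pRNAi are a description of known members and not independent evidence. Pt-gas1 was at 4.11, 5.00 and 6.56 CPM (lowest, median and highest of 6) in the libraries labelled Pt-ptc pRNAi, against 95.3, 96.1 and 70.7 CPM in untreated embryos of females 1, 2 and 3. The groups did not overlap, and the ratio of a female's pRNAi mean to its untreated value was 0.0525, 0.0676 and 0.0591, a narrow range. The log2 fold change was −4.06 ± 0.11 (SE, 16.7-fold lower, adjusted p = 3.29e-11), the smallest p of the 12195 models tested. The test called 1.01% of models in this comparison, 0.295% higher and 0.713% lower. With the libraries of a female summed, the Pt-gas1 value was −4.06 (adjusted p = 1.01e-06).

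The shifted-like models fell by a similar amount in the libraries labelled Pt-ptc pRNAi. Reads on aug3.g27568 were at 0.684, 1.34 and 1.64 CPM (lowest, median and highest of 6), against 19.1, 17.6 and 14.2 CPM in untreated embryos of females 1, 2 and 3. These groups did not overlap (−3.73 ± 0.20, 13.3-fold lower, adjusted p = 4.69e-08). With the libraries of a female summed, the value was −3.74 (adjusted p = 8.90e-06). The model aug3.g24611 had 0 to 2 reads per library after Pt-ptc pRNAi, in all 6 libraries below the floor of 3 counts used here, against 25, 13 and 13 reads in untreated embryos of females 1, 2 and 3. In the library with 0 reads, a count of 0 allows up to 0.293 CPM. Against the floor of 3 counts per library it was at least 4.65-fold lower, and it passed the test (adjusted p = 0.000776). This call was lost when female 1 or female 3 was left out (log2 fold change −3.21 and −4.11, adjusted p = 0.0182 and 0.0108), and with the libraries of a female summed (−3.92, adjusted p = 0.0111). With the reads of the pair added up, the shifted-like gene was lower by −3.76 on the log2 scale (adjusted p = 5.62e-08).

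**Figure D1:**
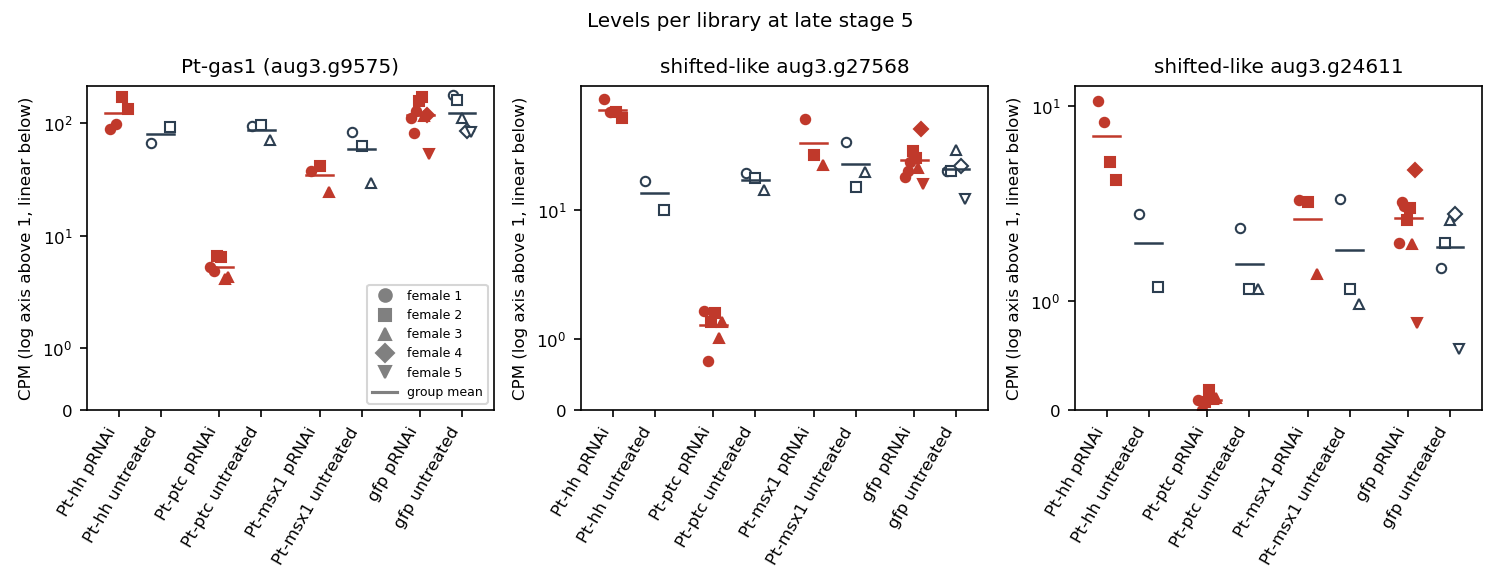
Levels of Pt-gas1, aug3.g27568 and aug3.g24611 in each late stage 5 library, in CPM on an axis that is logarithmic above 1 and linear below it. Filled red symbols are pRNAi libraries and open dark symbols untreated ones, symbol shapes mark the female, and horizontal lines are group means; the 6 Pt-ptc pRNAi libraries lie below all untreated libraries of the Pt-ptc females in each panel, and the 4 Pt-hh pRNAi libraries lie above the untreated ones of their females for the shifted-like models.

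In late stage 5 embryos with Pt-hh pRNAi, the shifted-like models rose and Pt-gas1 did not pass the test. Levels of aug3.g27568 were 72.3 and 56.9 CPM in Pt-hh pRNAi libraries of female 1 and 57.2 and 51.7 CPM in those of female 2, against 16.8 and 10.04 CPM in untreated embryos of females 1 and 2. The groups did not overlap (2.19 ± 0.17, 4.56-fold higher, adjusted p = 1.27e-05). With the libraries of a female summed, the value was 2.20 (adjusted p = 0.00122). The model aug3.g24611 was at 10.5 and 8.24 CPM in Pt-hh pRNAi libraries of female 1 and at 5.12 and 4.17 CPM in those of female 2, against 2.80 and 1.19 CPM in untreated embryos. These groups did not overlap either (1.84 ± 0.30, 3.57-fold higher, adjusted p = 0.00211), although the call was lost with the later egg sac of each female alone (1.67, adjusted p = 0.0360), with the libraries of a female summed (1.85, adjusted p = 0.0237) and with no block (1.84, adjusted p = 0.212). With the pair added up, the shifted-like gene was higher by 2.15 (adjusted p = 1.26e-05). The test called 3.55% of models after Pt-hh pRNAi, 2.34% higher and 1.21% lower.

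Pt-gas1 was at 88.5 and 98.3 CPM in Pt-hh pRNAi libraries of female 1 and at 173 and 133 CPM in those of female 2, against 66.7 and 93.5 CPM in untreated embryos of females 1 and 2. Each pRNAi library was above the untreated library of its own female, but the groups overlapped because the females differed. The log2 fold change was 0.61 ± 0.14 (1.53-fold higher in 2 of 2 females) with an adjusted p of 0.0211, which misses the threshold of 0.01. It passed with edgeR's likelihood ratio test (adjusted p = 0.00226), with DESeq2 (adjusted p = 0.00870) and with no filter on low counts (adjusted p = 0.000632). It was farther from passing with the libraries of a female summed (adjusted p = 0.0624), without female 2 (0.0898) and with no block for the female (0.523). The size of the Pt-gas1 response to Pt-hh pRNAi was small beside its response in the libraries labelled Pt-ptc pRNAi.

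None of the 3 models passed the test in gfp females at late stage 5. In gfp females 1 to 3, Pt-gas1 was at 82.5, 122 and 171 CPM in pRNAi libraries (lowest, median and highest of 6), against 178, 161 and 111 CPM in untreated embryos (−0.27 ± 0.15, adjusted p = 0.514). The model aug3.g27568 was at 17.99, 22.4 and 28.5 CPM in the same pRNAi libraries, against 20.02, 20.1 and 29.3 CPM in untreated embryos (0.04 ± 0.16, adjusted p = 0.947), and aug3.g24611 gave 0.41 ± 0.29 (adjusted p = 0.630). In these females 0.137% of models were called. In gfp females 4 and 5 the log2 fold changes were −0.05 ± 0.23 for Pt-gas1, 0.72 ± 0.25 for aug3.g27568 and 0.72 ± 0.50 for aug3.g24611, none of which passed (adjusted p = 0.975, 0.281 and 0.741), and 0.231% of models were called. In these females aug3.g27568 was at 42.3 and 15.8 CPM in gfp pRNAi embryos, against 21.9 and 12.01 CPM in untreated ones, higher in 2 of 2 females.

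The difference between a response and that of gfp females 1 to 3 was tested directly at late stage 5. The response labelled Pt-ptc was below the gfp response by −3.79 ± 0.22 for Pt-gas1, −3.77 ± 0.27 for aug3.g27568 and −4.27 ± 0.58 for aug3.g24611 (adjusted p = 2.75e-10, 1.06e-08 and 0.000188), where 0.365% of models were called. The Pt-hh response was above the gfp response by 2.15 ± 0.25 for aug3.g27568 (adjusted p = 1.88e-05), where 2.5% of models were called. It was not called different for Pt-gas1 (0.89 ± 0.24, adjusted p = 0.0387) or for aug3.g24611 (1.44 ± 0.43, adjusted p = 0.0613). The response labelled Pt-ptc minus the Pt-hh response was −4.68 ± 0.19 for Pt-gas1, −5.92 ± 0.27 for aug3.g27568 and −5.69 ± 0.56 for aug3.g24611, and each passed (adjusted p = 7.81e-12, 7.32e-11 and 2.88e-06; 2.55% of models called). The aug3.g24611 values rest on libraries at the count floor and depend on the prior count of the fit.

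**Figure D2:**
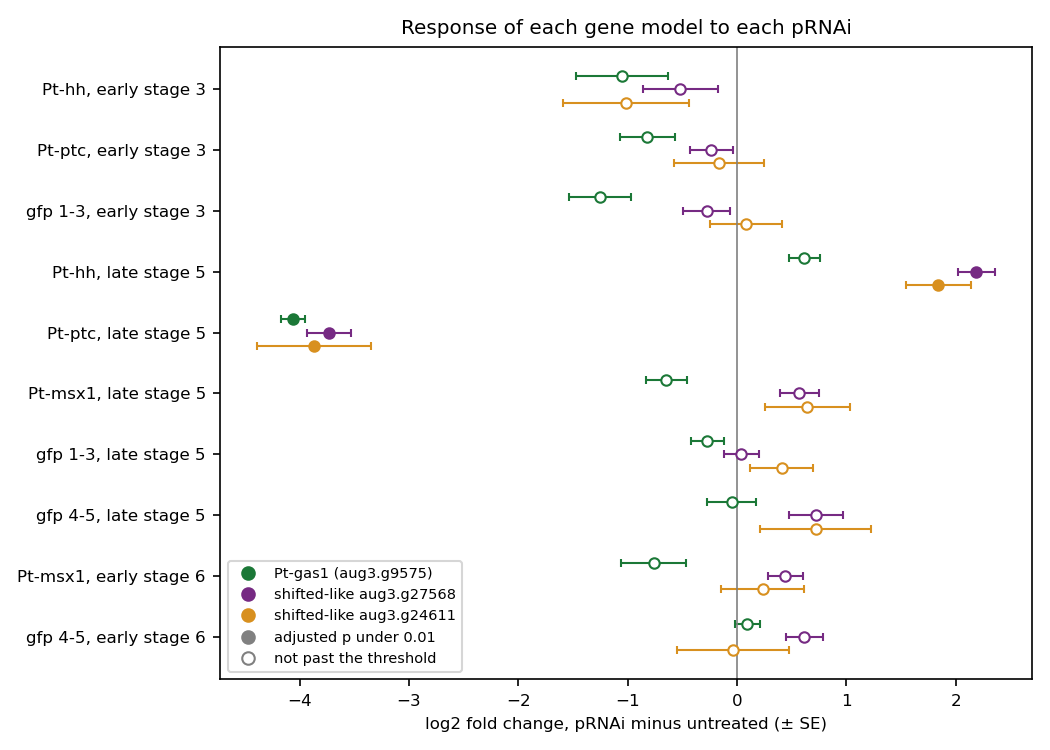
Log2 fold changes (pRNAi over untreated) of the 3 models in each of 10 comparisons, with standard errors as bars. Filled symbols passed the adjusted p threshold of 0.01; they are the 3 models at late stage 5 in the libraries labelled Pt-ptc pRNAi and the 2 shifted-like models at late stage 5 after Pt-hh pRNAi.

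Whole embryos were sampled, so fewer cells of a type and less RNA per cell cannot be told apart. Markers of germ disc regions are given as a description. Apart from Pt-hh, the study had classed them by their response to Pt-hh and Pt-ptc pRNAi in these same late stage 5 libraries. Their directions were thus known beforehand and are not independent evidence. The center list, Pt-msx1, Pt-AP2-A and Pt-ci, summed to 314 to 436 CPM at late stage 5 in the libraries labelled Pt-ptc pRNAi, against 914 to 1013 CPM in untreated ones, and 3 of 3 markers fell. The periphery list, Pt-otd, Pt-opa, Pt-lab-A and Pt-hh, summed to 969.9 to 1289 CPM in the libraries labelled Pt-ptc pRNAi, against 512 to 605 CPM in untreated ones, where Pt-opa and Pt-lab-A rose and Pt-otd and Pt-hh did not pass (0.66 ± 0.16, adjusted p = 0.0460, and 0.37 ± 0.14, adjusted p = 0.222). After Pt-hh pRNAi the center list summed to 1975 to 2186 CPM, against 900.4 to 966 CPM in untreated embryos, and 3 of 3 markers rose. The periphery list summed to 53.8 to 77.01 CPM after Pt-hh pRNAi, against 567 to 571 CPM in untreated embryos, and 4 of 4 markers fell, Pt-hh being the targeted gene. No marker was at 0 reads in these libraries, and the part of these regions in the results for Pt-gas1 and the shifted-like gene was not tested.

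At early stage 3 none of the 3 models passed the test after any pRNAi, and Pt-gas1 was low throughout. Pt-gas1 was at 2.59 and 1.24 CPM in Pt-hh pRNAi libraries of female 1 and at 2.03 and 0.958 CPM in those of female 2, against 3.95 and 2.87 CPM in untreated embryos (−1.05 ± 0.42, adjusted p = 0.247; 0.34% of models called). These are 9 to 19 reads per pRNAi library. In the libraries labelled Pt-ptc pRNAi it was at 0.816, 3.42 and 5.41 CPM (lowest, median and highest of 6), against 1.29, 10.9 and 5.603 CPM in untreated embryos (−0.82 ± 0.25, adjusted p = 0.133; 0.134% of models called). In the gfp pRNAi libraries it was at 2.25, 3.69 and 7.36 CPM, against 11.97, 14.7 and 4.12 CPM in untreated embryos (−1.26 ± 0.28, adjusted p = 0.0177; 1.26% of models called). Pt-gas1 thus had a lower mean in pRNAi than in untreated embryos in 8 of 8 females, gfp females included. In gfp females it passed with edgeR's likelihood ratio test, DESeq2 and no filter (adjusted p = 0.00111, 0.00344 and 0.000343). The Pt-hh and Pt-ptc responses of Pt-gas1 at early stage 3 were not called different from the gfp response (0.20 ± 0.56, adjusted p = 0.957, and 0.44 ± 0.42, adjusted p = 0.753, with 0.0276% and 0% of models called). In the Pt-ptc difference 1619 models had an unadjusted p under 0.05 in edgeR's quasi-likelihood test, edgeR's likelihood ratio test called 36 and DESeq2 called 25.

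The shifted-like models were also not called at early stage 3. The model aug3.g27568 was at 3.27 to 7.55 CPM in Pt-hh pRNAi libraries, against 9.87 and 5.03 CPM in untreated embryos (−0.52 ± 0.34, adjusted p = 0.506). It was at 4.82 to 7.53 CPM in the libraries labelled Pt-ptc pRNAi, against 4.07 to 10.8 CPM (−0.24 ± 0.20, adjusted p = 0.595), and at 5.38 to 17.3 CPM in gfp pRNAi libraries, against 10.3 to 14.04 CPM (−0.28 ± 0.22, adjusted p = 0.462). The model aug3.g24611 had 3 to 24 reads per pRNAi library and 5 to 19 reads per untreated library at this stage. Its log2 fold changes were −1.02 ± 0.58 for Pt-hh, −0.17 ± 0.41 for Pt-ptc and 0.08 ± 0.33 for gfp (adjusted p = 0.430, 0.881 and 0.917).

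The step from early stage 3 to late stage 5 was compared within egg sacs, since each sac gave a library at both stages. Pt-gas1 was higher at late stage 5 in 4 of 4 Pt-hh pRNAi sacs, by 6.22 ± 0.28 on the log2 scale (74.3-fold, adjusted p = 7.87e-09), and in 6 of 6 gfp pRNAi sacs, by 4.88 ± 0.16 (29.4-fold, adjusted p = 5.04e-11). In the sacs labelled Pt-ptc pRNAi it was higher in 5 of 6, by 0.88 ± 0.36 (1.84-fold), and did not pass the test (adjusted p = 0.0392). These sacs came from 2 Pt-hh, 3 gfp and 3 Pt-ptc females, and the fit had the sac and not the female as block, so its p-values treat sacs of a female as separate. The share of all models called between the stages was 59% in Pt-hh pRNAi, 72.2% in Pt-ptc pRNAi and 69.6% in gfp pRNAi sacs.

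The shifted-like models took opposite courses. The model aug3.g27568 was lower at late stage 5 in 6 of 6 sacs labelled Pt-ptc pRNAi (−2.19 ± 0.24, 4.57-fold, adjusted p = 6.17e-06), higher in 4 of 4 Pt-hh pRNAi sacs (3.61 ± 0.25, 12.2-fold, adjusted p = 2.61e-07) and higher in 6 of 6 gfp pRNAi sacs (1.06 ± 0.22, adjusted p = 0.000649). The model aug3.g24611 was lower in 6 of 6 sacs labelled Pt-ptc pRNAi (adjusted p = 0.000436) and higher in 4 of 4 Pt-hh pRNAi sacs (3.51 ± 0.38, adjusted p = 9.25e-06), and it did not pass in gfp pRNAi sacs (0.67 ± 0.32, adjusted p = 0.0719).

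The change of the response between the stages was tested as a treatment by stage term. For the label Pt-ptc, the response at late stage 5 minus that at early stage 3 was −3.20 ± 0.26 for Pt-gas1, −3.49 ± 0.30 for aug3.g27568 and −3.69 ± 0.66 for aug3.g24611 (adjusted p = 6.86e-08, 1.95e-07 and 0.00461; 0.452% of models called). For Pt-hh it was 2.73 ± 0.39 for aug3.g27568 and 2.88 ± 0.60 for aug3.g24611 (adjusted p = 0.000257 and 0.00800; 1.37% of models called). For Pt-gas1 and Pt-hh it was 1.71 ± 0.38 and missed the threshold (adjusted p = 0.0125), but passed with edgeR's likelihood ratio test and DESeq2 (adjusted p = 0.000511 and 0.000714).

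**Figure D3:**
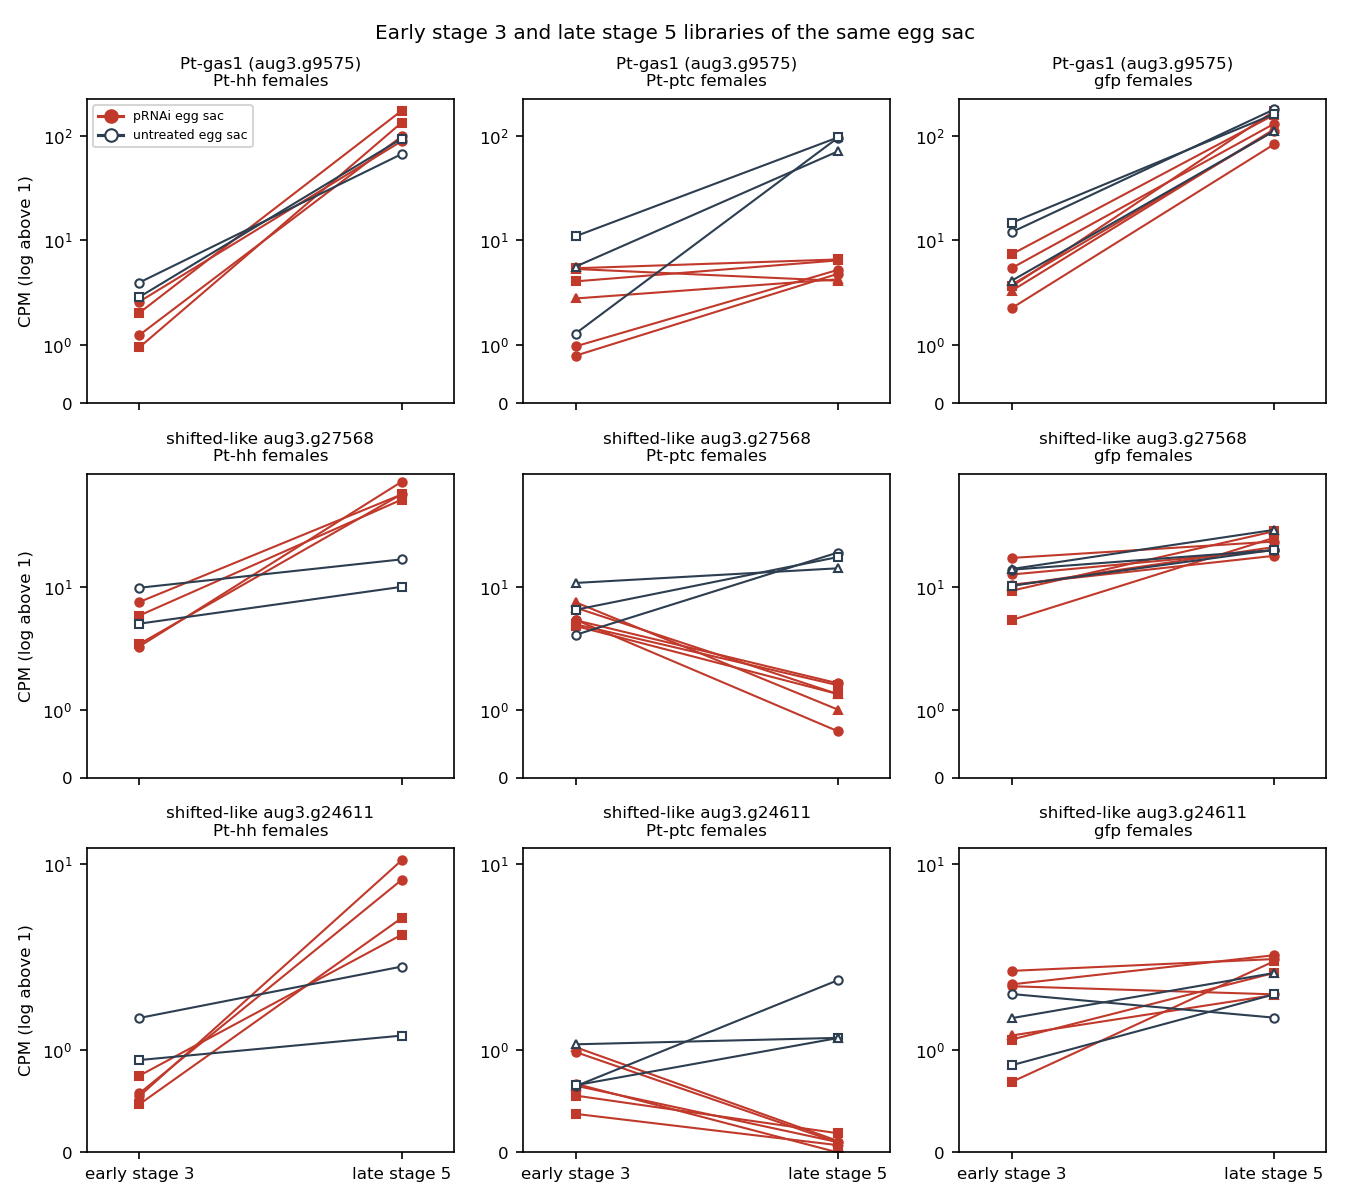
Levels in early stage 3 and in late stage 5 embryos of the same egg sac, joined by a line, for Pt-gas1 (top row), aug3.g27568 (middle row) and aug3.g24611 (bottom row) in Pt-hh, Pt-ptc and gfp females, in CPM on an axis that is logarithmic above 1 and linear below it. Filled red symbols are pRNAi sacs and open dark symbols untreated ones; in the sacs labelled Pt-ptc pRNAi Pt-gas1 was at 4.11 to 6.56 CPM at late stage 5 and 0.816 to 5.41 CPM at early stage 3, and aug3.g27568 was lower at late stage 5 than at early stage 3 in 6 of 6.

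Egg sacs laid later and earlier after injection did not differ by the test for any of the 3 models (0.00756% and 0.00817% of models called for Pt-hh in early stage 3 and in late stage 5 embryos, and 0% for Pt-ptc in either, where 310 and 216 models had an unadjusted p under 0.05 in edgeR's quasi-likelihood test; no other tool was run). At late stage 5 the later minus earlier difference was −0.12 ± 0.17 for Pt-gas1 and −0.23 ± 0.16 for aug3.g27568 in Pt-hh pRNAi (adjusted p = 0.999 for both). It was −0.03 ± 0.17 for Pt-gas1 and −0.12 ± 0.35 for aug3.g27568 in the libraries labelled Pt-ptc pRNAi (adjusted p = 1.00 for both). At early stage 3 in Pt-hh pRNAi, Pt-gas1 was lower by −1.07 ± 0.49 and aug3.g27568 higher by 0.98 ± 0.36 in the later sacs (unadjusted p = 0.0430 and 0.0154, adjusted p = 0.998 for both, edgeR).

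In the libraries labelled Pt-msx1 pRNAi, Pt-gas1 had lower values than in untreated embryos at late stage 5. It was at 37.95, 41.6 and 24.5 CPM after pRNAi in females 1, 2 and 3, against 82.8, 63.4 and 29.2 CPM in untreated embryos of the same females. The value was lower in 3 of 3 females and the groups overlapped (−0.65 ± 0.19, unadjusted p = 0.00659, adjusted p = 0.579). For aug3.g27568 the values were 50.8, 26.8 and 22.2 CPM after pRNAi, against 33.5, 14.96 and 19.5 CPM in untreated embryos, higher in 3 of 3 females (0.57 ± 0.18, adjusted p = 0.659). The model aug3.g24611 was at 3.31, 3.22 and 1.39 CPM after pRNAi, against 3.34, 1.15 and 0.979 CPM (0.64 ± 0.39, adjusted p = 0.961). No model passed (0% of 12440) in edgeR's quasi-likelihood test, while 696 had an unadjusted p under 0.05, edgeR's likelihood ratio test called 34 and DESeq2 called 14. None of these calls was one of the 3 models.

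At early stage 6 the Pt-gas1 result depended on the column with identical counts. Pt-gas1 was at 37.8 and 25.5 CPM in the libraries labelled Pt-msx1 pRNAi of females 2 and 3, against 98.9 and 53.9 CPM in untreated embryos of these females. In the column given for female 1 it was at 123.6 CPM, against 114 CPM in untreated embryos of that female. With all 3 females the log2 fold change was −0.76 ± 0.30 (adjusted p = 0.738), and 0% of models were called; 775 had an unadjusted p under 0.05, edgeR's likelihood ratio test called 16 and DESeq2 called 4. Without female 1 it was −1.24 ± 0.13 (lower in 2 of 2 females, adjusted p = 0.00465), and Pt-gas1 was 1 of 5 models called. With 2 females and 4 libraries this fit leaves little to estimate the spread between females. The study had also called Pt-gas1 with Pt-msx1 pRNAi at this stage on these same libraries. Its values here describe a known member and are not independent evidence. The model aug3.g27568 was at 16.3, 20.5 and 19.3 CPM after pRNAi, against 10.3, 15.8 and 16.05 CPM in untreated embryos of females 1, 2 and 3. The value was higher in 3 of 3 females, where the pRNAi value of female 1 is from the column with identical counts. It did not pass with all females (0.44 ± 0.16, adjusted p = 0.738) or without female 1 (0.33 ± 0.16, adjusted p = 0.549). In gfp pRNAi embryos at early stage 6 it was at 19.8 and 16.3 CPM, against 11.6 and 12.2 CPM in untreated embryos of females 4 and 5 (0.62 ± 0.17, adjusted p = 0.0223, and 0.00932 with RLE size factors; 1.71% of models called), where the second pRNAi value is the same column. The gfp comparison without that column would leave 1 library on each side and was not tested.

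At late stage 5 the Pt-msx1 responses were not called different from those of gfp females 4 and 5, with −0.60 ± 0.35 for Pt-gas1 and −0.16 ± 0.30 for aug3.g27568 (adjusted p = 1 for both). At early stage 6 the identical counts enter both arms of the difference, which was −0.87 ± 0.41 for Pt-gas1 and −0.20 ± 0.23 for aug3.g27568 (adjusted p = 1 for both). Without Pt-msx1 female 1 the difference passed for Pt-gas1 (−1.34 ± 0.16, adjusted p = 0.00978, 1 of 5 models called) and not for aug3.g27568 (−0.29 ± 0.22, adjusted p = 0.783). Without gfp female 5, which leaves 1 gfp female, neither passed (−0.96 ± 0.58 and −0.34 ± 0.32, adjusted p = 1 for both). With all females no model passed at either stage (0%) in the quasi-likelihood test; 520 and 338 had an unadjusted p under 0.05, the likelihood ratio test called 6 and 5, and DESeq2 called 1 and 2. In the libraries labelled Pt-msx1 pRNAi, the step of Pt-gas1 from late stage 5 to early stage 6 was 0.54 ± 0.35 with all females and −0.03 ± 0.15 without female 1 (adjusted p = 0.770 and 0.975). With all females 0% of models were called for this step in edgeR's quasi-likelihood test and 788 had an unadjusted p under 0.05, and without female 1 there were 65 calls.

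The reads of the shifted-like pair were shared unevenly, with most on aug3.g27568 in every group. By the counts and the authors' RPKM values, aug3.g27568 is 6.31 times as long as aug3.g24611 (median), so the share of reads is not a share of level. In untreated libraries the median RPKM was 6.55, 12.9 and 8.25 for aug3.g27568 at stages 3, 5 and 6, against 4.41, 6.02 and 5.855 for aug3.g24611. Over 67 libraries, with the identical columns counted once, aug3.g24611 took 1082 of 11334 reads of the pair, 9.55% (95% Clopper-Pearson interval 9.01 to 10.1%, counting error only, since reads of a library are not independent molecules). By treatment and stage the share lay between 6.58% (gfp pRNAi, early stage 6, 1 library, interval 3.73 to 10.6%) and 13.2% (gfp pRNAi, early stage 3, interval 10.9 to 15.9%). In late stage 5 Pt-hh pRNAi libraries it was 10.3% (8.91 to 11.7%), and in the libraries labelled Pt-ptc pRNAi it was 6.82% (2.54 to 14.3%, 6 of 88 reads). Across libraries, the log2 CPM values of the pair had a Pearson correlation of 0.93 (67 libraries), and of 0.95 over the 34 late stage 5 libraries. The correlation of Pt-gas1 with aug3.g27568 was 0.70 over 67 libraries and 0.87 over the late stage 5 libraries. These are descriptions: the libraries share females, and several treatments enter together.

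**Figure D4:**
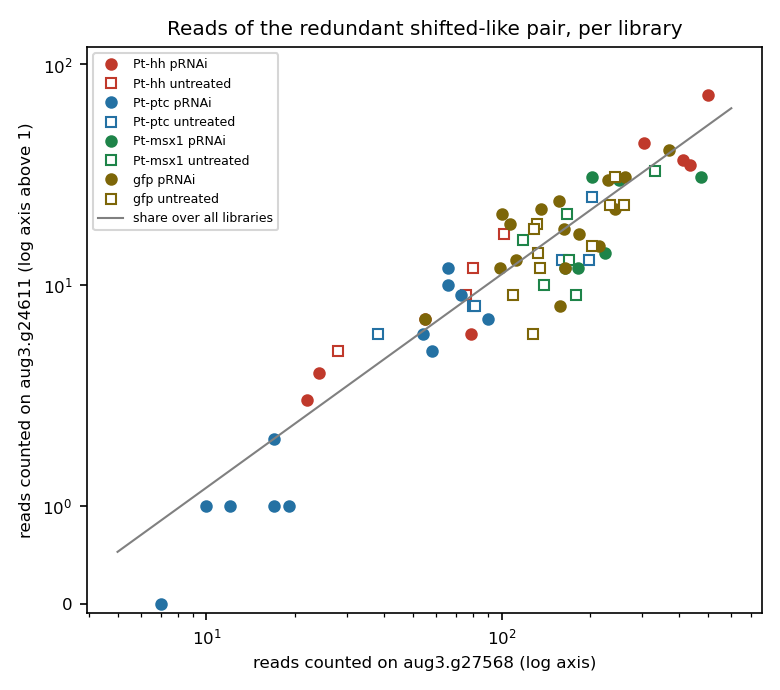
Reads counted on aug3.g24611 (vertical axis, logarithmic above 1) against reads counted on aug3.g27568 (horizontal axis, logarithmic) in each library; filled circles are pRNAi and open squares untreated libraries, coloured by the dsRNA of the female. The line is the share of 9.55% over all libraries, and libraries of every treatment lie along it, with the Pt-ptc pRNAi libraries of late stage 5 at its low end.

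Most other genes with a Hedgehog pathway description did not share these late stage 5 responses. Pt-gas1 and the shifted-like models are among those the study called on these same libraries, while the other genes were found by their description. The contrast is thus built into the choice of models, and says nothing particular about Pt-gas1 or the shifted-like gene. The list held 20 models found by words in the annotation, of which 18 were tested at late stage 5. It also caught GLIS3 and patched domain-containing models that are not core components, and it shares Pt-hh and Pt-ci with the region markers. In the libraries labelled Pt-ptc pRNAi, 1 rose, 1 fell and 16 did not pass (2 of 18 called, against 1.01% of all models tested; median 0.20, against −0.00082 over all models). The one that rose was Pt-smo, the signal transducer held inactive by Patched (0.73 ± 0.12, adjusted p = 0.00450), and the one that fell was Pt-ci, the transcription factor of the pathway (−1.08 ± 0.10, adjusted p = 1.33e-05). After Pt-hh pRNAi, 2 rose, 4 fell and 12 did not pass (6 of 18 called, against 3.55% of all models; median −0.15, against 0.0040 over all models).

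Among ligand and receptors, Pt-hh itself fell after Pt-hh pRNAi (−4.00 ± 0.24) and the receptor Pt-ptc fell (−2.50 ± 0.13, adjusted p = 1.86e-07), together with aug3.g24717, a patched-like model (−2.20 ± 0.39, adjusted p = 0.00414). The glypican-6 model aug3.g11833, of a family of membrane heparan sulfate proteoglycans that bind Hh, fell (−1.17 ± 0.12, adjusted p = 0.000122). Pt-ci rose (1.17 ± 0.14, adjusted p = 0.000214), as did aug3.g6669, described as patched domain-containing protein 3-like (1.55 ± 0.24, adjusted p = 0.00160). The model aug3.g12323, annotated like CDON, another vertebrate Hedgehog co-receptor, did not pass after Pt-hh pRNAi (0.22 ± 0.13, adjusted p = 0.414) or in the libraries labelled Pt-ptc pRNAi (−0.38 ± 0.09, adjusted p = 0.0513). Nor did aug3.g10365, annotated as Dispatched, which releases Hh from cells (−0.02 ± 0.20, adjusted p = 0.984, and 0.38 ± 0.22, adjusted p = 0.461). Of the 18 models, only Pt-ci passed after both treatments, higher after Pt-hh pRNAi and lower in the libraries labelled Pt-ptc pRNAi, the directions also seen for both shifted-like models. No pathway model was called in gfp pRNAi against untreated embryos, where 0.137 to 1.71% of all models were, or in the libraries labelled Pt-msx1 pRNAi, where 0% were, so the list did not stand apart there. The overlapping neighbor aug3.g27569 did not follow aug3.g27568, with −0.27 ± 0.13 after Pt-hh pRNAi and −0.30 ± 0.12 in the libraries labelled Pt-ptc pRNAi (adjusted p = 0.294 and 0.243).

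**Figure D5:**
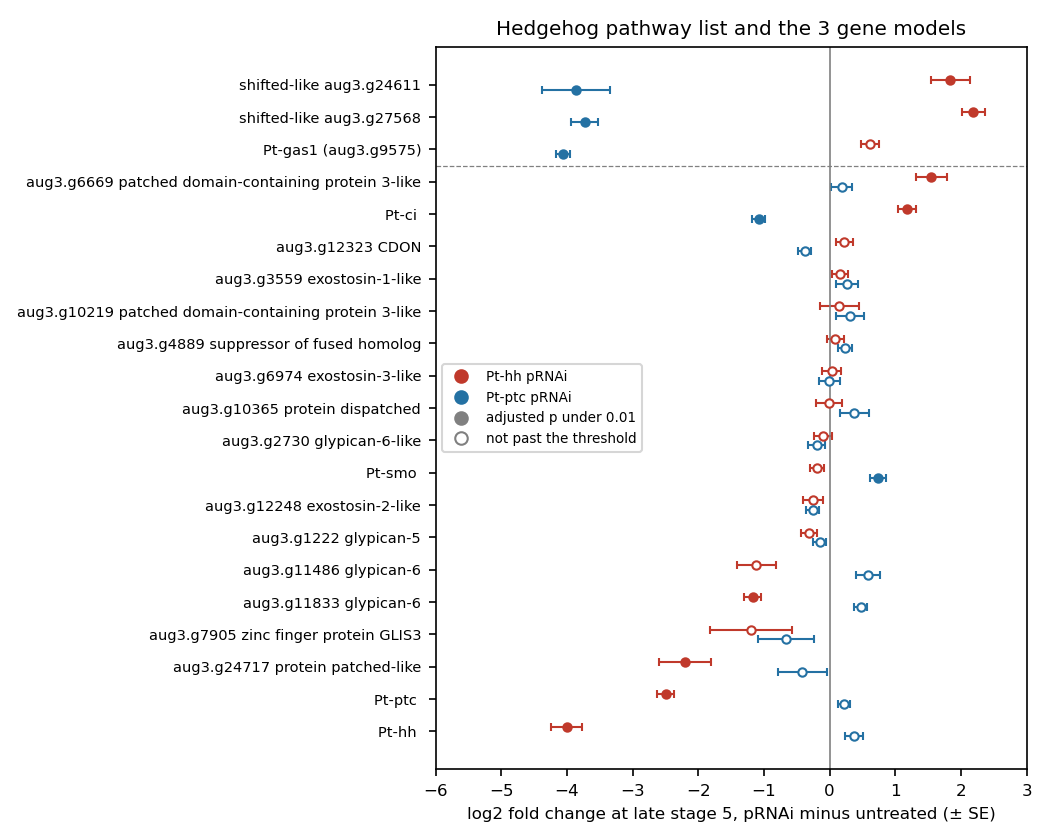
Log2 fold changes (with standard errors) at late stage 5 of the 18 tested models of the pathway list and, above the dashed line, the 3 models described here; red is Pt-hh pRNAi and blue Pt-ptc pRNAi, each over untreated embryos. Filled symbols passed the adjusted p threshold of 0.01. The blue symbols of Pt-gas1 and the shifted-like models lie between −4.06 and −3.73, and the next lowest filled blue symbol is Pt-ci at −1.08. Pt-gas1 and the shifted-like models were already called by the study on these libraries, so this gap is built into their choice.

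The models whose levels were most like those of Pt-gas1 were found by the Pearson correlation of log2 CPM over 67 libraries among 14271 models. They were aug3.g18397, annotated as gooseberry, a paired-class transcription factor (0.95), aug3.g13939, which has no description (0.93), aug3.g10820, annotated as Wnt-5b-like (0.93), aug3.g17640, annotated as Hox-A5 (0.93), and aug3.g4198 (0.92). Over the 34 late stage 5 libraries Pt-msx1 was among the first 5 (0.94), after aug3.g4198 (0.96), aug3.g1632, which matches the same RefSeq locus as aug3.g10820 (0.95), aug3.g18397 (0.95) and aug3.g407 (0.95). For aug3.g27568 over 67 libraries they were Pt-msx1 (0.88), aug3.g26043, annotated as B-cell lymphoma/leukemia 11A (0.85), aug3.g12644, a serine protease (0.84), aug3.g1787, annotated as Hox-B4a-like (0.83), and Pt-ci (0.82). For aug3.g24611 the first 2 were aug3.g12644 (0.81) and Pt-msx1 (0.79). The points share females and treatments, and these correlations are descriptions.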

How the data were processed

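RNA-seq counts of 68 libraries were analysed. Another 7 stage 7 samples listed for gfp females were not analysed here. The authors trimmed reads (CLC Genomics Workbench), aligned them by BLAT to Ptep_1.0, filtered the alignments, and made the deposited counts by strand with htseq-count (HTSeq 0.5.4p5) in union mode on the aug3 gene models. The deposited counts are not normalized. The deposited RPKM values were made by the authors from the same counts, with a length and read total not given in the sources used here, and served only for comparisons per length and for the pair of identical columns. The deposited tables of the authors' comparisons hold log2 fold changes and adjusted p-values and were not used.

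Counts were tested in R 4.3.3 with edgeR 4.0.16: models reaching 1 CPM in 1 or more libraries of the fit, TMM scaling, quasi-likelihood F tests, and p-values adjusted over all models tested by Benjamini-Hochberg, with a threshold of 0.01. Standard errors were the log2 fold change divided by the square root of F. The female was a block, except in the steps between stages of pRNAi embryos, where the egg sac was. Untreated and pRNAi libraries of a number come from the same female, by the labels; the deviations of a female's pRNAi and untreated libraries from their group means correlated at 0.54 to 0.76 across models, except for Pt-msx1 at early stage 6 (0.29 to 0.59). Per-library CPM values were scaled over all 68 columns. A group with at most 3 counts in every library was taken as at the floor. The share of all models whose groups do not overlap was not counted, so a lack of overlap only describes the printed values. Alternatives were DESeq2 1.42.0, the likelihood ratio test of edgeR, no filter, RLE size factors, filterByExpr, no block, each female left out, earlier or later egg sacs, summed libraries, the shifted-like pair summed, and gfp females 1 to 5 in 1 fit. The fits were also run on simulated libraries that were independent and had no differences between females, with changes planted only in models with higher counts. That run therefore says nothing about repeated egg sacs of a female or about recovering changes in models with few reads.

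The 3 models were given by identifier, the pathway list by words in the deposited descriptions and by the paper's gene names, the region markers by the paper's text, and the most alike models as the 5 highest correlations among models that reached 1 CPM in 5 or more libraries. These members and lists were chosen with earlier results of these data known. Replicates are separate females, and the pRNAi egg sacs of a female are repeats within it. All 3 models were found in the RefSeq gene table, whose assembly differs from Ptep_1.0, so no coordinates were taken from it. No sequences were used here.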

Additional observations from a re-analysis of the deposited data

Results flagged for a closer look

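The following differences between treatments or stages passed the test of the difference itself, in edgeR's quasi-likelihood fit. Each includes a late stage 5 response to Pt-hh or Pt-ptc pRNAi, for which the study had called these models on the same libraries. They are descriptions of known members and not independent evidence. At late stage 5 the Pt-hh response exceeded the gfp response for aug3.g27568 (log2 difference 2.15). The response in the libraries labelled Pt-ptc pRNAi was below the gfp response for Pt-gas1 (−3.79), aug3.g27568 (−3.77) and aug3.g24611 (−4.27), and below the Pt-hh response for the same models (−4.68, −5.92 and −5.69). The response at late stage 5 was above that at early stage 3 for Pt-hh in aug3.g27568 (2.73) and aug3.g24611 (2.88). It was below that at early stage 3 for Pt-ptc in Pt-gas1 (−3.20), aug3.g27568 (−3.49) and aug3.g24611 (−3.69). No library stood apart by Dixon's test at the 95% level in the 21 groups of 4 to 10 libraries examined for the 3 models. Smaller groups, among them all Pt-msx1 and all early stage 6 groups, were not examined. The pRNAi groups examined held several egg sacs of the same female, which the test treats as separate.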

How the results depend on the processing

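Over 72 results, 486 alternative values were computed, of which 450 kept direction and side of the threshold. The late stage 5 calls of aug3.g27568 after Pt-hh pRNAi, and of Pt-gas1 and aug3.g27568 in the libraries labelled Pt-ptc pRNAi, held in every alternative run. The cause of the following changes was not tested. Pt-gas1 after Pt-hh pRNAi at late stage 5 passed with the likelihood ratio test (0.61), DESeq2 (0.60) and no filter (0.61). The call of aug3.g24611 was lost there with no replicate block (1.84, adjusted p = 0.212), with later sacs alone (1.67) and with summed libraries (1.85). In the libraries labelled Pt-ptc pRNAi at late stage 5 it was lost with earlier sacs (−3.96), later sacs (−3.77) and summed libraries (−3.92), all with fewer libraries, and leaving out a female gave −4.32 to −3.21. Without a female, aug3.g24611 ranged from −0.41 to 0.010 for Pt-ptc at early stage 3, and from −0.057 to 0.47 for Pt-msx1 at early stage 6, where Pt-gas1 ranged from −1.24 to −0.47. Between untreated late stage 5 and early stage 6, Pt-gas1 lost its call with no replicate block (0.62) and ranged from 0.59 to 0.71 without a female, aug3.g27568 passed with no filter (−0.57), and aug3.g24611 ranged from −0.45 to 0.16. The step of Pt-gas1 between these stages in Pt-msx1 pRNAi was −0.031 without female 1, and the Pt-msx1 minus gfp difference of Pt-gas1 at early stage 6 then passed (−1.34); these alternatives were chosen after seeing the data. The aug3.g27568 response in gfp pRNAi at early stage 6 passed with RLE size factors (0.63). In gfp females, values near 0 changed sign: at early stage 3 aug3.g24611 was −0.065 to 0.21 without a female and −0.24 with the pair summed; at late stage 5 aug3.g27568 was −0.022 with no replicate block and −0.17 to 0.23 without a female, and Pt-gas1 was −0.43 to 0.057 without a female and, in females 4 and 5, 0.060 with no replicate block; at early stage 6 aug3.g24611 was 0.56 with the pair summed. Leaving out a gfp female of females 4 and 5 leaves no residual degrees of freedom and was not run; with a Pt-hh female left out, the lone untreated library is assumed to vary like the others.

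The number of models called moved with the setting. It was 435 after Pt-hh pRNAi at late stage 5 (39 to 881 over the alternatives), 123 in the libraries labelled Pt-ptc pRNAi (39 to 443), 17 in gfp females 1 to 3 (0 to 253), 28 in gfp females 4 and 5 (0 to 78), 205 in gfp pRNAi at early stage 6 (0 to 270), and 0 for Pt-msx1 at late stage 5 (0 to 113) and early stage 6 (0 to 16). At early stage 3 it was 45 for Pt-hh (0 to 333), 18 for Pt-ptc (0 to 381) and 179 for gfp (0 to 706). Between untreated late stage 5 and early stage 6 it was 286 (2 to 809). With no replicate block it was 39 for both Pt-hh and Pt-ptc at late stage 5. Depth limits aug3.g24611 most, with 0 to 73 reads per library.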
